A study of Mus musculus with 2 samples.

Results

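The genes described here are 10 transcription factors of the mesenchyme of the developing stomach: Barx1, Nkx3-2, Six2, Pitx1, Isl1, Foxf1, Foxf2, Foxl1, Meis1 and Meis2. They were chosen by name from knowledge of gut development, with earlier results of these data known but with no measured value in the rule, out of 43346 Ensembl genes in the tables. All 10 were found under their symbols. Total RNA-seq was available for whole stomachs of B6NCrl mouse embryos at day 16.5, healthy and labelled as mixed sex. No treatment or engineered allele was named. The group held 2 biological replicates. Replicate 2 was pooled from 41 embryos, and for replicate 1 no number of embryos is given. With a single group and 2 libraries there was no contrast to test. The smallest p that an exact two-sided sign-flip test could give with 2 libraries is 0.5, so levels and differences between the libraries are given as measurements. Libraries held 43195887 and 25151165 expected counts on Ensembl genes in replicates 1 and 2.

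The stomach wall outside the epithelium develops from mesenchyme that gives rise to smooth muscle, fibroblasts and the cells that lie under the epithelium. Hedgehog ligands made by the epithelium act on this mesenchyme, where Foxf1, Foxf2 and Foxl1, which encode forkhead factors, are known hedgehog-responsive genes. Barx1 is known for directing stomach identity of the overlying epithelium, and Nkx3-2, Six2 and Isl1 for the posterior stomach and the pyloric sphincter. Meis1 and Meis2 encode homeodomain proteins of the TALE class that bind DNA together with Pbx and Hox proteins.

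All 10 genes reached 1 TPM (a length-corrected share of all transcripts) in both libraries, the level called detected here. The background was 64.3% of 21474 protein-coding genes and 35.5% of all Ensembl genes. The 64.3% is also the background for the detected counts of the gene lists below. The sum of the 10 was 422 TPM in replicate 1 and 410 TPM in replicate 2. Meis1, Pitx1 and Foxf1 carried 69.8% of that sum in replicate 1 and 71.0% in replicate 2. From the highest gene, Meis1, to the lowest, Nkx3-2, the level spanned 60.7-fold in replicate 1 and 74.2-fold in replicate 2. The descending order by mean TPM was Meis1, Pitx1, Foxf1, Barx1, Meis2, Isl1, Foxf2, Foxl1, Six2 and Nkx3-2, and each library alone gave the same order. In 9 of 9 neighbouring pairs of this order the ranges over the 2 libraries were separate, but the authors' own TPM intervals, which cover the estimate within a library, overlapped in both libraries for Foxl1 with Six2 and for Six2 with Nkx3-2, and in replicate 2 for Barx1 with Meis2. Whole tissue was sequenced, so a low level from few cells and a low level in every cell cannot be told apart.

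**Figure D1:**
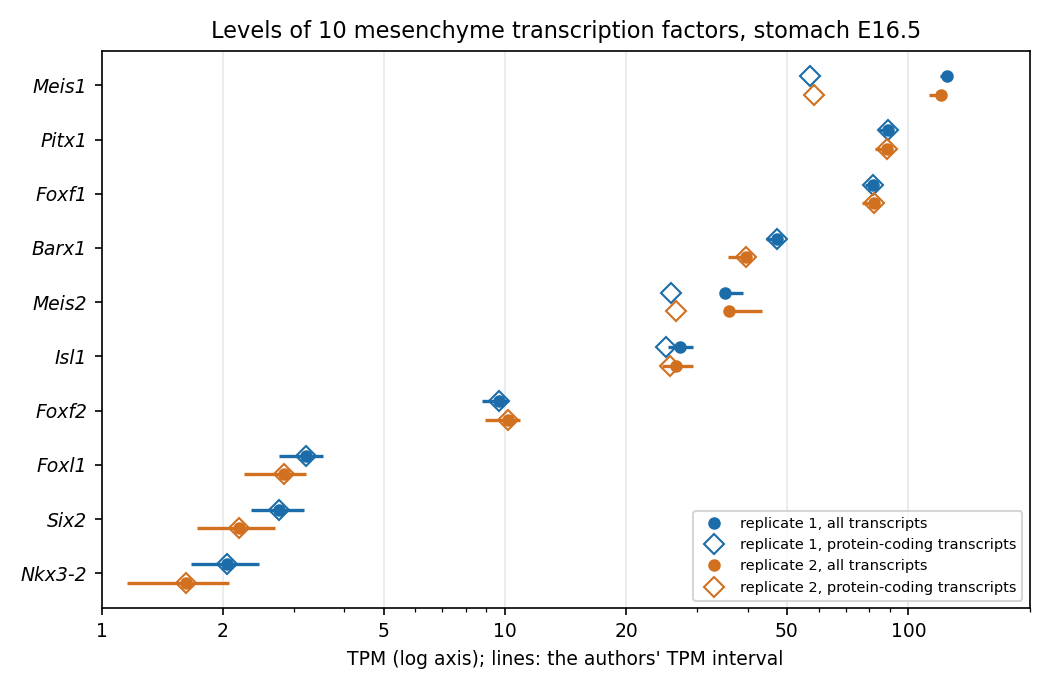
TPM of each gene (log axis) in replicate 1 (blue) and replicate 2 (orange). Filled points are the sum over all transcripts, lines are the authors' TPM intervals around their posterior mean estimate, and open diamonds are the sum over transcripts annotated as protein-coding. The diamonds leave the points most for Meis1, at 57.0 and 58.5 TPM against 124 and 120.2 TPM.

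Meis1 (ENSMUSG00000020160; GRCm38 chromosome 11, 18879817 to 19018985, minus strand) had 124 TPM in replicate 1 and 120.2 TPM in replicate 2, a mean of 122 ± 3.02 TPM (SD over n = 2 libraries, as for every ± below). That mean was at percentile 91.2 of the 13815 detected protein-coding genes. Meis2 (ENSMUSG00000027210; chromosome 2, 115863064 to 116065839, minus strand) had 35.1 and 36.0 TPM in replicates 1 and 2, a mean of 35.5 ± 0.615 TPM. Meis1 was 3.55-fold above Meis2 in replicate 1 and 3.34-fold above it in replicate 2, and 6.96-fold and 6.51-fold above Meis3, the remaining paralog, which had 17.9 and 18.5 TPM. The 3 paralogs kept this order in both libraries with no overlap.

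The level of Meis1 was spread over 9 annotated transcripts, and part of it was not annotated as coding. Protein-coding transcripts carried 45.8% of its TPM in replicate 1 and 48.7% in replicate 2, or 57.0 and 58.5 TPM. The transcript with the highest TPM in both libraries was Meis1-203, annotated as a processed transcript without a coding sequence, and by expected counts the leading transcript in both was the coding Meis1-201. Counted over coding transcripts alone, a view chosen after seeing the data, Meis1 moved from the highest of the 10 genes to the third, below Pitx1 and Foxf1. Meis2 kept 73.5% and 73.7% of its TPM in coding transcripts, and Isl1 91.9% and 96.8%. The other 7 genes, Pitx1 and Foxf1 among them, have only protein-coding transcripts in the annotation used. Their coding share was therefore fixed by the annotation, and their levels could not fall in this view.

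Both Meis genes have an alternative end of the coding sequence, which lies after the homeodomain and sets the carboxy terminus of the protein. An optional exon of 95 bases, called the cassette exon here, lies before the last exon of each gene, at chromosome 11, 18883988 to 18884082 in Meis1 and at chromosome 2, 115866810 to 115866904 in Meis2. Of its bases, 56 are coding and end the reading frame, so that transcripts with it have a shorter coding sequence (1170 bases in Meis1-201, 1182 bases in Meis2-206) than those that join past it to the last exon (1395 bases in Meis1-209, 1410 bases in Meis2-203). The coding bases of the cassette exon are shown for the paralogs because the results on transcript forms turn on them; they were read from the GENCODE M21 transcripts, 5′ to 3′ on the minus strand of GRCm38, with capitals at the bases where the paralogs differ.
Meis1 cassette exon (chr11:18884027-18884082): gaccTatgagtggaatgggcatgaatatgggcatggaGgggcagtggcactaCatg
Meis2 cassette exon (chr2:115866849-115866904): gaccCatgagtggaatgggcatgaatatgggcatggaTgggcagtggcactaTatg
The paralogs share 53 of these 56 bases, or 94.6%. The first 60 coding bases of the last exon, read when the cassette exon is skipped, share 46 of 60 bases, or 76.7%.
Meis1 last exon (chr11:18881863-18881922): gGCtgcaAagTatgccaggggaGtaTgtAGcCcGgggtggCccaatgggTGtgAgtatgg
Meis2 last exon (chr2:115864454-115864513): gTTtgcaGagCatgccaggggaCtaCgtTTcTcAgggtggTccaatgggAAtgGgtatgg
Over the whole coding sequence, aligned, Meis1-201 and Meis2-206 share 77.9% of positions. The cassette exon was thus the stretch of higher identity of those compared.

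Most of the coding Meis1 and Meis2 signal with either end was assigned to the form with the cassette exon. In Meis1 this form made up 68.8% of the TPM of both coding forms in replicate 1 and 60.6% in replicate 2, a mean of 64.7 ± 5.75%. In Meis2 it made up 58.1% and 55.8%, a mean of 56.9 ± 1.61%. By TPM the range of Meis1 lay above that of Meis2. By expected counts the ranges overlapped, at 67.7% and 59.5% in Meis1 and 63.4% and 61.5% in Meis2, so the paralogs were not separated by both measures. When transcripts not annotated as coding were counted too, the cassette share was 82.4% and 77.4% in Meis1, because Meis1-203 carries the exon, and 56.9% and 55.8% in Meis2. These shares are the authors' assignment of reads that transcripts have in common, and no junction reads were available to check them.

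Within Meis2, single transcripts were less well separated than these groups of transcripts. Meis2-206 led in replicate 1 and Meis2-203 in replicate 2 by TPM, and Meis2-203 led in both libraries by the posterior mean estimate. Transcripts that start at the upstream first exon made up 82.0% of coding Meis2 TPM in replicate 1 and 80.2% in replicate 2. An optional stretch of 21 bases at the 5′ end of the exon before the cassette exon was in 34.5% of coding Meis2 TPM in replicate 1 and 44.3% in replicate 2. That exon is shown with the optional stretch in capitals, since it is the difference between Meis2-205 and Meis2-206.
Meis2 exon (chr2:115867269-115867379): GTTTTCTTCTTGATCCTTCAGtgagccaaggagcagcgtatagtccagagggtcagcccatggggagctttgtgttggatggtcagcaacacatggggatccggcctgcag

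**Figure D2:**
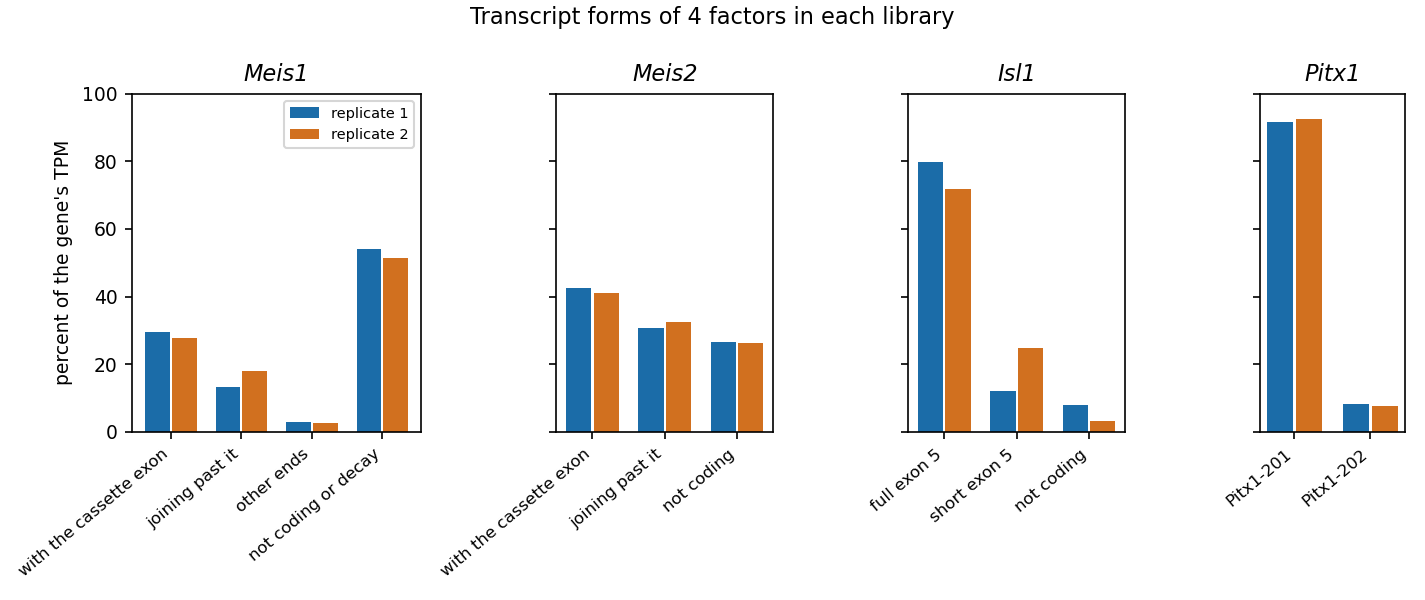
Percent of each gene's TPM in groups of annotated transcripts, for replicate 1 (blue) and replicate 2 (orange). The bars of the libraries are close for Meis1, Meis2 and Pitx1, and the short form of Isl1 is at 12.2% in replicate 1 and 24.9% in replicate 2.

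The partners of Meis proteins were present with them. All 9 genes of the list of TALE partners and relatives were detected, with a median of 17.9 TPM in replicate 1 and 18.5 TPM in replicate 2. Tgif1, a TALE-class repressor, was the highest at 48.1 ± 3.25 TPM. The lowest, Pbx4, had 2.53 and 3.83 TPM. None of the 9 passed a 2-fold difference between the libraries, against 3.58% of all 17763 genes tested.

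Among the forkhead genes, Foxf1 (ENSMUSG00000042812; chromosome 8, 121084386 to 121088144, plus strand) had 81.5 TPM in replicate 1 and 82.3 TPM in replicate 2, a mean of 81.9 ± 0.537 TPM. Foxf2 (ENSMUSG00000038402; chromosome 13, 31625816 to 31631403, plus strand), its closest paralog, had 9.64 and 10.2 TPM. Foxl1 (ENSMUSG00000097084; chromosome 8, 121127940 to 121130644, plus strand), known for marking cells directly under the gut epithelium, had 3.21 and 2.84 TPM. Foxf1 was therefore 8.46-fold and 8.08-fold above Foxf2, and 25.4-fold and 29.0-fold above Foxl1. Each of the 3 has a single annotated transcript in the tables, so no assignment between transcripts enters these levels. Of the 13 forkhead relatives on a list, 7 were detected, against 64.3% of all protein-coding genes. Foxp1 was the highest at 90.2 ± 2.96 TPM, and Foxl2 was listed at 0 in both libraries.

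Foxf1 and Foxl1 are neighbours, and the genes between and beside them had unequal levels. Fendrr, a long non-coding RNA gene on the opposite strand, starts 1276 bp from the start of Foxf1 and had 23.3 and 24.3 TPM. Mthfsd, which lies between the forkhead genes on the opposite strand, had 42.6 and 39.6 TPM. Foxc2, a forkhead gene that also lies between them, on their strand, was not detected, with 0.10 and 0.11 TPM from 8 and 5 expected counts. Its relative Foxc1 had 0.14 and 0.17 TPM. Thus Foxc2 was low between 2 detected forkhead genes 43554 bp apart, start to start. A locus annotated across the whole interval, Gm20388, had 6.88 and 10.0 TPM. Its expected counts were not whole in either library, while those of Foxf1 (5797 and 3272), Foxl1 (257 and 127), Fendrr, Mthfsd and Foxc2 were whole in both.

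**Figure D3:**
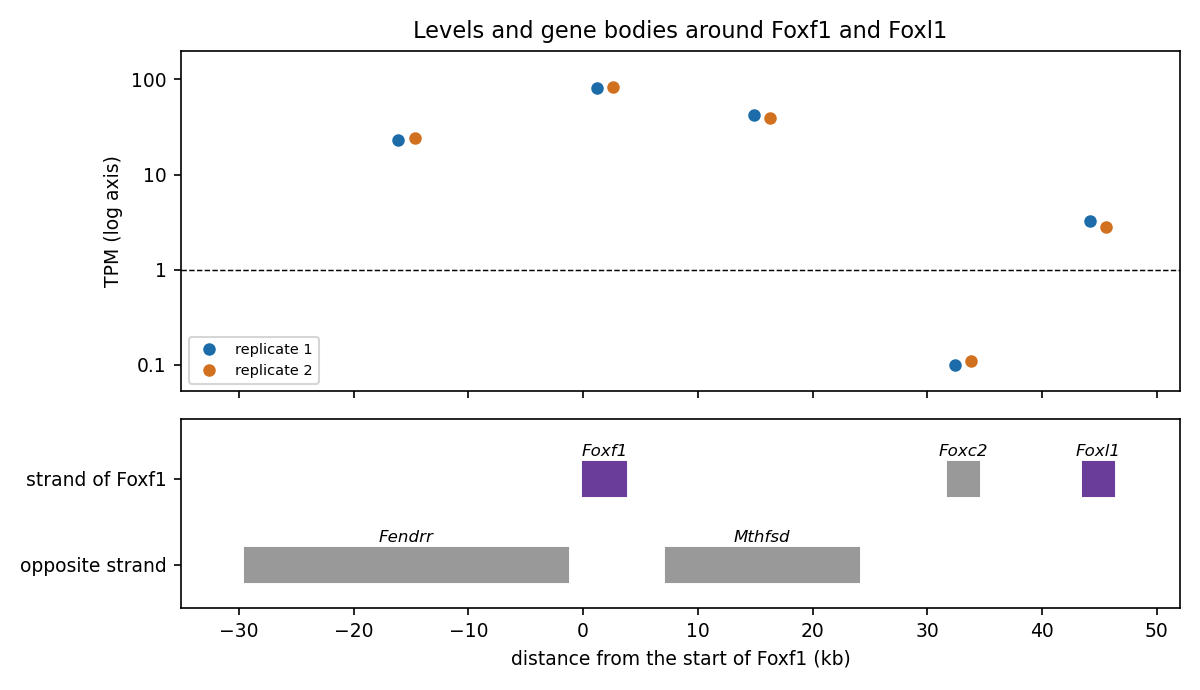
Top, TPM (log axis) of 5 genes in replicate 1 (blue) and replicate 2 (orange), placed at the middle of each gene; the dashed line is the detection level of 1 TPM. Bottom, gene bodies by distance in kb from the start of Foxf1, by strand, with the described factors in purple; Foxc2 is the gene under the line.

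A divergent non-coding gene also lies beside Foxf2: 1700018A04Rik starts 24 bp away on the opposite strand and had 2.52 and 3.42 TPM. Foxq1, a forkhead gene 64839 bp from Foxf2, was above Foxf2 at 12.7 and 14.2 TPM. Around all 10 factors, 54 other genes are annotated within 100 kb, of which 47 were in the tables and 18 were detected, 9 of them protein-coding. Over all Ensembl genes in the tables, 35.5% were detected. In the body of Meis1, the antisense gene Gm16141 had 16.8 and 17.1 TPM and the antisense gene Gm16140 had 2.43 and 2.62 TPM. The lincRNA gene 2700033N17Rik, 378 bp upstream of Meis2, had 6.39 and 4.30 TPM. Within Pitx1, the same-strand gene Gm28760 had 2.88 and 3.43 TPM, and its expected counts and those of Pitx1 were not whole in either library but summed to 6061 and 3409, so the genes shared reads. Whether the counting used strand is not given in the sources used here, so an antisense gene and its host cannot be told apart with certainty.

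Genes of hedgehog signalling, the input to the forkhead genes, were present in the same libraries. Of the 13 measured genes of this list, 12 were detected, against 64.3% of all protein-coding genes, with medians of 13.8 and 15.1 TPM. Gas1, a hedgehog co-receptor, was the highest at 24.4 ± 6.02 TPM, followed by the pathway inhibitor Sufu at 21.9 ± 1.12 TPM, the receptor and target Ptch1 at 19.5 ± 0.594 TPM and the target Hhip at 19.4 ± 0.410 TPM. Dhh, a ligand, was the lowest, at 1.02 and 0.85 TPM. The other ligands were higher, with Ihh at 15.4 and 18.5 TPM and Shh at 3.43 and 2.81 TPM. No gene of the list passed a 2-fold difference between the libraries, against 3.58% of all genes tested.

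Barx1 (ENSMUSG00000021381; chromosome 13, 48662998 to 48666507, plus strand) had 47.3 TPM in replicate 1 and 39.5 TPM in replicate 2, a mean of 43.4 ± 5.54 TPM. It was the only one of the 10 whose authors' TPM intervals, 44.3 to 48.5 in replicate 1 and 35.7 to 40.8 in replicate 2, did not overlap. Its paralog Barx2 had 1.17 and 1.87 TPM, which put Barx1 40.4-fold and 21.1-fold above it. Among secreted factors of gut mesenchyme, 21 of 22 were detected, against 64.3% of all protein-coding genes. Sfrp2 and Sfrp1, secreted Wnt antagonists known as targets of Barx1 in the stomach, had 109.7 ± 2.12 and 53.6 ± 3.93 TPM, below only Igf1 in that list, at 119.5 ± 3.45 TPM. The lowest was Nog, a Bmp antagonist, at 0.88 and 0.44 TPM. Barx1 is also known for a role in the spleen. Of 5 spleen mesenchyme markers 4 were detected, against the same 64.3%. Their summed levels were 216 and 201 TPM, of which Tcf21, also counted here as a general gut mesenchyme factor, gave 166 and 160.0 TPM. The marker not detected was Tlx1, which defines that mesenchyme. It had 2.82 and 0.95 TPM, a log2 ratio of 1.20 that passed 2-fold, and was higher in the library in which Barx1 was higher; its part in the Barx1 level was not tested.

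Pitx1 (ENSMUSG00000021506; chromosome 13, 55825051 to 55836192, minus strand), a paired-type homeobox gene best known for hindlimb identity, had 88.9 TPM in replicate 1 and 88.6 TPM in replicate 2, a mean of 88.7 ± 0.148 TPM. None of 5 hindlimb and limb markers was detected, against 64.3% of all protein-coding genes. Their summed level was 0.51 TPM in replicate 1 and 0.88 TPM in replicate 2. The transcript with the full coding sequence, Pitx1-201, carried 91.7% and 92.5% of Pitx1 TPM. Its paralog Pitx3 had 0.46 and 0.17 TPM. Pitx1 and Foxf1 differed by only 1.08-fold, with separate ranges.

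Isl1 (ENSMUSG00000042258; chromosome 13, 116298281 to 116309689, minus strand), a LIM-homeodomain gene, had 27.2 and 26.5 TPM, a mean of 26.8 ± 0.516 TPM. Isl2 had 2.83 and 3.25 TPM, and Isl1 was 9.61-fold and 8.15-fold above it. Isl1 is also known from pancreatic endocrine cells and neurons. Of 6 pancreatic endocrine markers 5 were detected, against 64.3% of all protein-coding genes. Their summed levels were 435 and 377 TPM, of which Ins2 (insulin) had 340.0 and 293 TPM. All 5 enteric neuron markers were detected, with summed levels of 143 and 141 TPM. How much of Isl1 came from these cells was not tested. Of 11 LIM cofactors and partners of Six2, 10 were detected, and the cofactor Ldb1, which binds LIM-homeodomain proteins, had 33.8 ± 1.53 TPM.

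Exon 5 of Isl1 has a long and a short form that differ by 69 coding bases. The exon is shown in full, from the GENCODE M21 transcript Isl1-201 on the minus strand of GRCm38, with the stretch that the shorter coding transcript Isl1-202 lacks in capitals.
Isl1 exon 5 (chr13:116301611-116301778): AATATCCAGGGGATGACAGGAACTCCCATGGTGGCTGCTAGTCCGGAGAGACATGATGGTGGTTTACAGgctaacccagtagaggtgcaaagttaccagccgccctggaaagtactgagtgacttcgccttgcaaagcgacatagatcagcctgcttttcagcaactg
The short form made up 13.3% of the TPM of both forms in replicate 1 and 25.7% in replicate 2, a mean of 19.5 ± 8.77%. By expected counts the short form made up 6.52% and 13.6%. The long form led in both libraries by either measure, and the share of the short form was not well fixed by 2 libraries.

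Six2 and Nkx3-2, both known for the pyloric sphincter, were the lowest of the 10. Six2 (ENSMUSG00000024134; chromosome 17, 85684277 to 85688274, minus strand) had 2.76 and 2.19 TPM, from 171 and 76 expected counts. Nkx3-2 (ENSMUSG00000049691; chromosome 5, 41761483 to 41764501, minus strand) had 2.05 and 1.62 TPM, from 102 and 45 expected counts, a mean at percentile 5.01 of the detected protein-coding genes. Both are thus detected at a depth at which their difference between the libraries is not resolved. Six2 was the only gene of the 10 with several transcripts whose TPM was all in a single one, Six2-202, in both libraries. Six2 was not the highest of its family: Six5 had 8.39 and 7.37 TPM, Six4 had 0.45 and 0.60 TPM, and Six3 and Six6 were listed at 0 in both libraries. Nkx2-3, a known regulator of gut and spleen mesenchyme, had 9.03 and 6.08 TPM, above Nkx3-2. Nkx3-2 is also known from cartilage. Of 5 cartilage markers 1 was detected, against 64.3% of all protein-coding genes, and the summed levels were 3.14 and 2.67 TPM.

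Of 6 genes of the pyloric sphincter list, 5 were detected, against 64.3% of all protein-coding genes. Sox9 was the highest at 26.2 ± 0.0707 TPM, and Bmpr1b had 6.81 ± 0.141 TPM, Gata3 2.59 and 3.03 TPM, and Nkx2-5 3.70 and 1.92 TPM.

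**Figure D4:**
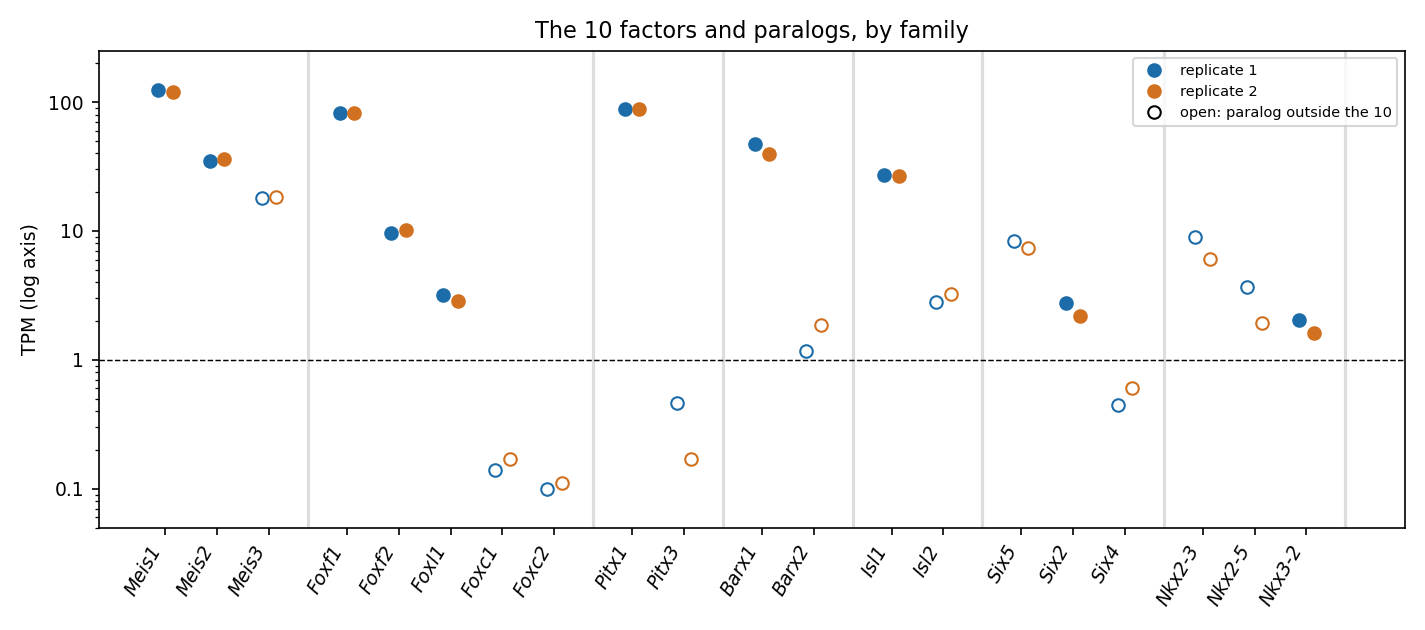
TPM (log axis) of the 10 factors (filled) and paralogs (open) in replicate 1 (blue) and replicate 2 (orange), grouped by family; the dashed line is the detection level of 1 TPM. The factors lead the Meis, Pitx, Barx and Isl genes shown, while Six5 lies above Six2 and Nkx2-3 above Nkx3-2.

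Measured differences between the libraries were below 2-fold for all 10 factors, but those of Six2 and Nkx3-2 were not well resolved. The log2 ratio of replicate 1 over replicate 2, computed from expected counts scaled by TMM, ran from -0.04 for Foxf2 to 0.37 for Nkx3-2. None of the 10 passed 2-fold, against 3.58% of the 17763 genes kept by the filter on low counts (1.24% higher in replicate 1 and 2.34% higher in replicate 2). With only 10 genes, a count of 0 cannot be told apart from that share. All 10 were kept by that filter. The ratio was above 0 for 9 of the 10 and for 50.4% of all genes. The median ratio of the 10 was 0.10, against 0.00 over all genes, and the median size was 0.10 against 0.14. For 7 of the 10 the 95% counting interval (Clopper-Pearson, which covers counting error only) held 0. The other 3 were Barx1 at 0.30 (0.18 to 0.41), Isl1 at 0.13 (0.01 to 0.24) and Meis1 at 0.07 (0.02 to 0.12). The intervals were widest for Nkx3-2 (-0.14 to 0.92) and Six2 (-0.03 to 0.78). When the libraries were scaled to their spike-in totals, the median gene moved to -0.57 and the 10 factors to between -0.62 and -0.20, so that the direction of 9 of 10 depends on the scaling, and relative to the median gene Foxf2 alone stayed below.

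**Figure D5:**
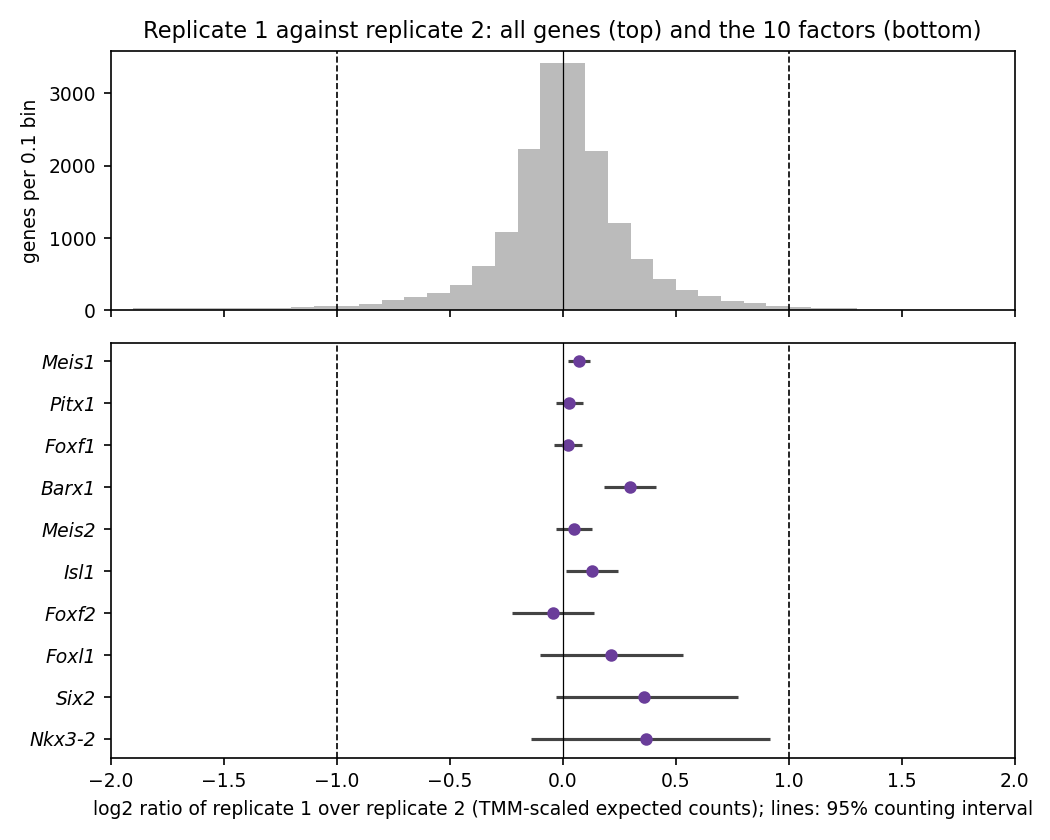
Top, number of genes per bin of 0.1 in the log2 ratio of replicate 1 over replicate 2, out of the 17763 genes kept. The axis ends at -2 and 2, so genes past those values are not shown. Bottom, the ratio of each factor with its 95% counting interval; dashed lines mark 2-fold, and the factors lie between -0.04 and 0.37.

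Other transcription factors of gut mesenchyme and of epithelium were compared as lists. Of 28 other mesenchyme factors 25 were detected, with medians of 7.85 and 7.13 TPM, against medians of 31.2 TPM in both libraries for the 10 factors; Tcf21 was the highest at 163 ± 4.02 TPM and Tbx5 the lowest at 0.27 and 0.36 TPM. The median ratio of the 28 between the libraries was 0.15, with 21 of 28 above 0, against 50.4% of all genes tested. Of 12 epithelial factors all were detected, with a median ratio of -0.11 and 5 of 12 above 0. Among epithelium markers 0 of 6 were higher in replicate 1, with summed levels of 3801 and 5260 TPM, and the fibroblast markers, 9 of 9 detected, had a median ratio of -0.0041. Of the smooth muscle markers 5 of 6 were lower in replicate 1, with a median ratio of -0.23 and summed levels of 4570 and 5603 TPM. All 8 skeletal muscle markers were higher in replicate 1 by more than 2-fold, against 1.24% of all genes tested. Their summed levels were 1577 and 161 TPM. The part of these differences in epithelium, smooth muscle and skeletal muscle in the ratios of the factors was not tested. The mesenchyme factor nearest in level to Meis1 was Tcf21, to Pitx1 and Foxf1 Tcf4 (79.4 and 77.7 TPM), to Barx1 Zeb2 (42.3 and 36.1 TPM), to Meis2 Myocd (35.9 and 34.4 TPM), to Isl1 Osr1 (28.8 and 30.6 TPM), to Foxf2 Ebf1 (10.0 and 9.67 TPM), to Foxl1 Prrx2 (3.13 and 2.94 TPM), and to Six2 and Nkx3-2 Tbx2 (2.48 and 2.43 TPM).

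The promoters of 7 of the 10 genes were matched by symbol in the RefSeq table (GRCm38.p6), as windows of 300 bases around the start; Foxf1, Foxl1 and Pitx1 were not matched, so the motif counts do not cover them. Their median GC content was 67.3%, against 52.7% over 32807 promoters, from 51.0% in Meis2 to 84.7% in Barx1. The Gli motif GACCACCCA, searched on both strands, was in 0 of 7 and in 0.253% of all promoters, and the forkhead motif GTAAACA was in 0 of 7 and in 3.65% of all. The Meis motif TGACAG was in 2 of 7, those of Nkx3-2 and Six2, and in 19.2% of all promoters. These counts describe the letters in the windows only.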

How the data were processed

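Libraries were made from 10 ng of total RNA longer than 200 nt out of stomach tissue, per the labels. A pool size is given for replicate 2 only. Genome mm10 and annotation M4 were used, per the deposited text files; for the aligner, the quantifier and the use of strand the sources used here give nothing. The authors deposited expected counts (estimated reads, not whole where reads are shared), TPM, FPKM and posterior mean TPM per gene and transcript. The interval bounds of TPM were deposited by the authors too. The deposited percent of each gene per transcript was not used; shares were computed from TPM. For ratios, counts were rounded, low genes were removed by filterByExpr with both libraries as 1 group, and TMM factors (1.01 and 0.992) and a prior count of 2 were applied with edgeR 4.0.16 under R 4.3.3. Spike-ins (1371191 and 526510 expected counts) and 26249 other rows stayed out of library sizes. Symbols and transcript structures came from GENCODE M21 (42462 genes with a symbol); of 192 listed genes 1 was not matched. Neighbours were genes within 100 kb. Sequences and shares were computed with Python 3.11.15, numpy 2.4.6, pandas 2.3.3 and scipy 1.17.1; DESeq2 1.42.0 gave an alternative scaling. The ratio step was tested on simulated data. Named were all 10 factors, their leading transcripts, all paralogs, detected neighbours, and for each list its 4 highest genes, its lowest and any past 2-fold; the text gives a part of these, and some of the paralogs and listed genes are not reported here. The members and lists were chosen with earlier results of these data known. Whether the 2 replicates came from separate litters is not stated, so their spread may be partly technical. Protein sequences were not analysed here.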

Additional observations from a re-analysis of the deposited data

How the results depend on the processing

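No paired analysis was possible because there is 1 group. All 10 factors stayed detected at 0.5 TPM, in FPKM, in posterior mean TPM and in coding transcripts, and 7 did at 5 TPM. Ranges of neighbours in the order were separate in 8 of 9 pairs with FPKM and 7 with posterior mean TPM. With coding transcripts only (this view chosen after seeing the data), 8 of 9 pairs were separate in the reported order. The remaining pair, Meis1 with Pitx1, was also separate but reversed, at 57.0 and 58.5 TPM against 88.85 and 88.64 TPM. With spike-in scaling 0 of 10 factors had a ratio above 0. The number of all genes past 2-fold, 636, became 1427 with spike-in scaling and 2724 without the filter, and 1649 passed 1.5-fold. No listed gene outside the cell type markers passed 2-fold, against 3.58% of all genes tested. However, 4 did with spike-in scaling (Barx2, Eya2, Lmo1 and Wnt4, lower in replicate 1) and 3 without the filter (higher in replicate 1). The cause was not tested. By expected counts, which weight long transcripts more, the cassette share became 63.6% in coding Meis1 and 62.5% in coding Meis2 (62.4% with other Meis2 transcripts counted) and 75.4% over all Meis1 transcripts, the short Isl1 form 10.1%, the part of Meis1 not annotated as coding 41.3% and of Meis2 26.6%, and Pitx1-201 98.0%. With posterior mean TPM the part of Meis2 not annotated as coding became 33.4%. Six2 and Nkx3-2 had the fewest expected counts of the 10 factors.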
